A study of Homo sapiens with 6 samples.

Results

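The interferon regulatory factor (IRF) genes IRF1, IRF2, IRF3, IRF4, IRF5, IRF7, IRF8 and IRF9 were followed in HT29 cells after knockdown of ALDOA, which encodes the glycolytic enzyme aldolase A. These 8 genes were chosen by name, as listed symbols of the family among the 28278 genes of each count table, and 6 of them held enough counts to be tested. HT29 is a human colorectal adenocarcinoma line with epithelial morphology, and all libraries came from this 1 line. The siALDOA group received an siRNA against ALDOA, the siControl group received a scrambled siRNA, and RNA was taken 48 h later from 3 biological replicates of each group. Only 1 ALDOA siRNA is named in the labels and cells without siRNA are not among the groups, so what both siRNAs share was not measured. Whether the replicates came from separate cultures is not described, and p-values therefore measure only the spread between these libraries. Levels are given as counts per 1e6 counts (CPM) after TMM scaling, which sets the libraries to a common scale on the assumption that most genes do not change. ALDOA itself had 592, 637 and 668 CPM in the siControl libraries and 283, 305 and 280 CPM in the siALDOA libraries, a log2 fold change of -1.13 (edgeR adjusted p = 6.95e-11), so every library went with its label.

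IRFs are transcription factors that share a tryptophan-rich DNA-binding domain and bind interferon response elements, which are built from repeats of the bases GAAA. Some members are latent in the cytoplasm and are phosphorylated after viral nucleic acids are sensed, some assemble with STAT proteins after interferon binds its receptor, and some act mainly in lymphoid and myeloid cells. In epithelial cells the family links the sensing of viral RNA to interferon genes and to antigen presentation. These sentences are background and not results of the present libraries.

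The mRNA levels of IRF7, IRF1 and IRF9 were higher with siALDOA, and that of IRF5 was lower. IRF7 changed most, by 1.70-fold, whereas IRF1 and IRF9 changed by 1.31-fold and 1.21-fold, and IRF5 was 1.33-fold lower. IRF3 and IRF2 did not pass the test, and IRF4 and IRF8 were too low to be tested. Among all 15307 genes tested at an adjusted p under 0.05, 4.36% were called higher, 5.29% lower and 9.66% in either direction, beside 3, 1 and 4 of the 6 tested IRF genes. At the unadjusted threshold of 0.01, the same counts of 3 higher and 1 lower IRF genes stood beside 5.72% and 6.74% of all genes. For 4 IRF genes all siALDOA libraries lay above all siControl libraries and for 1 they lay below, where 13.1% of all genes lay above, 14.6% below and 27.7% either way. The median log2 fold change of the 6 tested IRF genes was 0.21, and that of all tested genes was 0.0016.

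**Figure D1:**
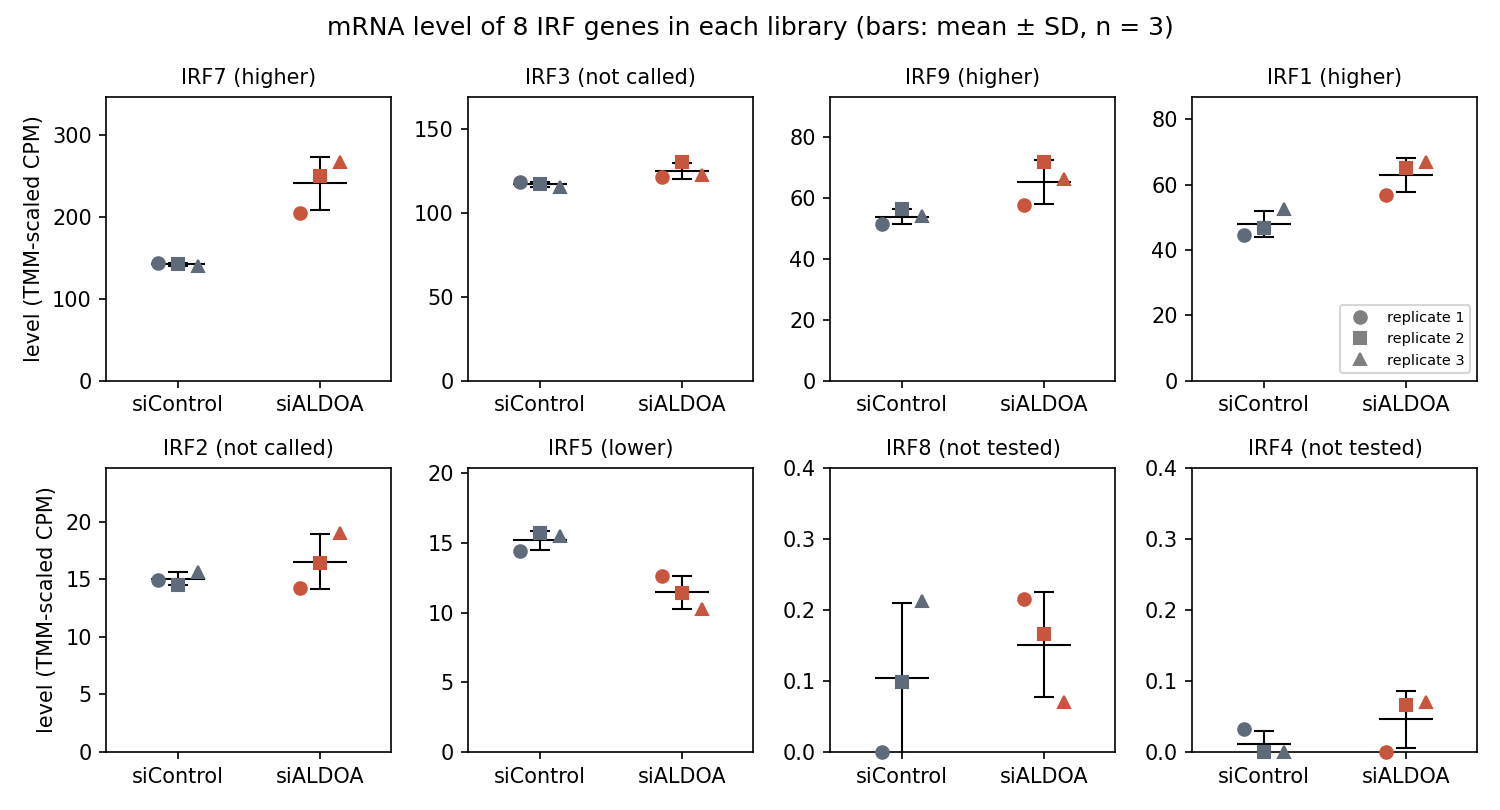
Level of each of the 8 IRF genes in each library, in TMM-scaled CPM, with a linear axis from 0 in each panel. Symbols mark the replicates, horizontal lines the mean and bars the SD of 3 libraries. The siALDOA libraries of IRF7 sit between 205 and 267 CPM, above the siControl libraries at 140 to 143 CPM, and IRF5 shows the opposite order.

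The depth and the cell identity were read from the same tables. The libraries held 31899091 to 33237914 counts in siControl and 27277538 to 28690395 in siALDOA. Of 12 colon epithelium markers, LGALS4 was at 0 in every library, and their summed level was 10045 to 10604 CPM in siControl and 9483 to 9814 CPM in siALDOA. In this list KRT19 was called higher (log2 fold change 0.38, edgeR adjusted p = 5.77e-04) and KRT18 lower (-0.28, adjusted p = 0.0152). All 10 lymphoid markers were under 1 CPM in every library, and 5 of them (MS4A1, CD79B, CD3E, CD3D and CD2) were at 0. Their summed level was 0.545 to 1.02 CPM in siControl and 0.826 to 1.33 CPM in siALDOA. Of 10 myeloid markers, 7 were under 1 CPM in every library and 5 of these (FCGR3A, TYROBP, AIF1, CD163 and CLEC9A) were at 0. The summed myeloid level of 1276 to 1324 CPM in siControl and 1379 to 1460 CPM in siALDOA was carried by LYZ, and CD14 was called higher with an edgeR adjusted p of 0.0485. Of 6 fibroblast and endothelial markers, COL1A2 was at 0, and the summed level was 3.28 to 4.10 CPM in siControl and 3.10 to 3.45 CPM in siALDOA. PECAM1 was called lower in this list (log2 fold change -1.23, edgeR adjusted p = 0.0429). All libraries came from the same cell line, so a marker in these lists does not show that another cell type was present. A link of these markers to the IRF levels was not tested.

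To rank the family, the levels were divided by the length of each gene's canonical transcript, since a longer transcript collects more reads. In siControl, IRF7 stood at 73.7 ± 0.873 and IRF3 at 73.3 ± 0.945 CPM per kilobase (SD, n = 3), with ranges that overlapped. IRF9 followed at 33.2 ± 1.52, IRF1 at 13.5 ± 1.14, IRF2 at 6.67 ± 0.250 and IRF5 at 5.24 ± 0.239 CPM per kilobase, and neighbours in this order did not overlap. IRF8 and IRF4 came last, at 0.0388 and 0.0020 CPM per kilobase, and overlapped each other. In siALDOA the order was the same, but IRF7 at 125 ± 16.6 CPM per kilobase lay apart from IRF3 at 78.1 ± 3.00. The order was also the same when the length of all annotated exons was used in place of 1 transcript, but the distances were not. In siControl, IRF7 then stood at 54.3, IRF3 at 30.8, IRF9 at 8.34 and IRF1 at 3.91 CPM per kilobase.

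The make-up of the family per library followed from these levels. The summed level of the 8 genes was 205, 207 and 206 CPM per kilobase in the siControl libraries and 245, 285 and 287 in the siALDOA libraries, so the groups did not overlap. IRF7 accounted for 35.9% ± 0.537 of this sum in siControl and for 45.8% ± 2.41 in siALDOA (SD, n = 3). The share of IRF3 was 35.6% ± 0.567 in siControl and 28.8% ± 2.16 in siALDOA, although the level of IRF3 itself was not called lower. IRF1 held 6.56% ± 0.550 and 6.51% ± 0.0824, and IRF9 held 16.1% ± 0.654 and 14.7% ± 0.681. IRF2 held 3.24% and 2.69%, and IRF5 held 2.55% and 1.47%. Shares of 1 sum depend on each other and on the gene lengths used, and they were not tested.

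**Figure D2:**
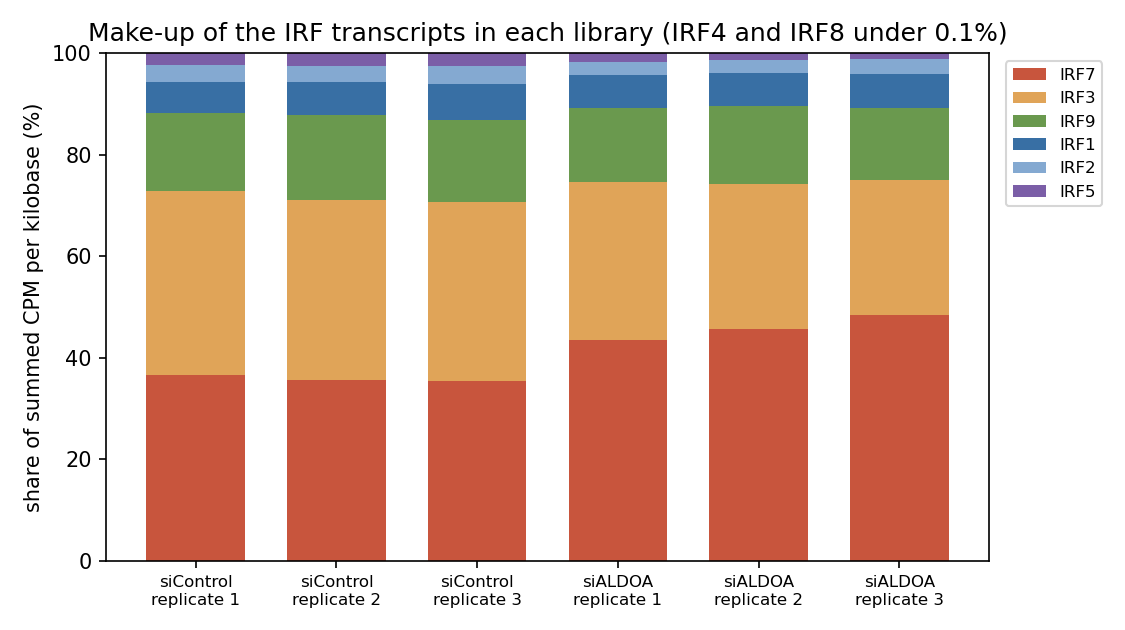
Share of each IRF gene in the summed CPM per kilobase of the 8 genes, in percent, with 1 stacked bar per library. The IRF7 segment covers 35.4% to 36.5% of the siControl bars and 43.5% to 48.3% of the siALDOA bars.

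IRF7 is itself induced by interferon and drives the interferon alpha genes once it is phosphorylated. It lies on chromosome 11 of hg38 from 612555 to 615950 (minus strand, ENSG00000185507). Its level was 143, 142 and 140 CPM in siControl replicates 1, 2 and 3 and 205, 250 and 267 CPM in siALDOA replicates 1, 2 and 3. Every siALDOA library lay above every siControl library, and the siALDOA libraries were spread more widely, with an SD of 31.8 against 1.68 CPM. The log2 fold change was 0.76 (standard error 0.074, 95% interval 0.61 to 0.92, edgeR adjusted p = 4.51e-07). By p, IRF7 held place 65 among the genes with a log2 fold change above 0. Over 13 alternative fits the log2 fold change of IRF7 ranged from 0.68 to 0.86.

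IRF3 is the constitutive counterpart of IRF7 and is phosphorylated by the same kinases, TBK1 and the product of IKBKE. It lies on chromosome 19 from 49659572 to 49665857 (minus strand, ENSG00000126456). Its level was 118, 117 and 115 CPM in siControl and 121, 130 and 122 CPM in siALDOA. All siALDOA libraries of IRF3 lay above the siControl libraries, but the difference was not called (log2 fold change 0.092, 95% interval -0.028 to 0.21, edgeR adjusted p = 0.358). This interval leaves room for a difference of up to 1.16-fold. IRF3 overlaps BCL2L12 on the opposite strand, and the strand setting of the counting is not stated. Reads of this pair therefore cannot be told apart where the genes overlap. BCL2L12 had a log2 fold change of -0.051 (edgeR adjusted p = 0.741).

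The ratio of IRF7 to IRF3 counts compared both genes inside each library, free of any scaling. It was 1.21 in each of the 3 siControl libraries and 1.69, 1.92 and 2.18 in the siALDOA libraries. The mean log2 ratio was 0.66 higher with siALDOA, which is a 1.58-fold difference (exact permutation test, two-sided, p = 0.1). With 3 libraries against 3 there are 20 arrangements, and 0.1 is the smallest p they can give. The ratio was chosen with earlier results of these data known, so this p is not independent evidence. Leaving out 1 library at a time gave log2 differences of 0.57 to 0.75.

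**Figure D3:**
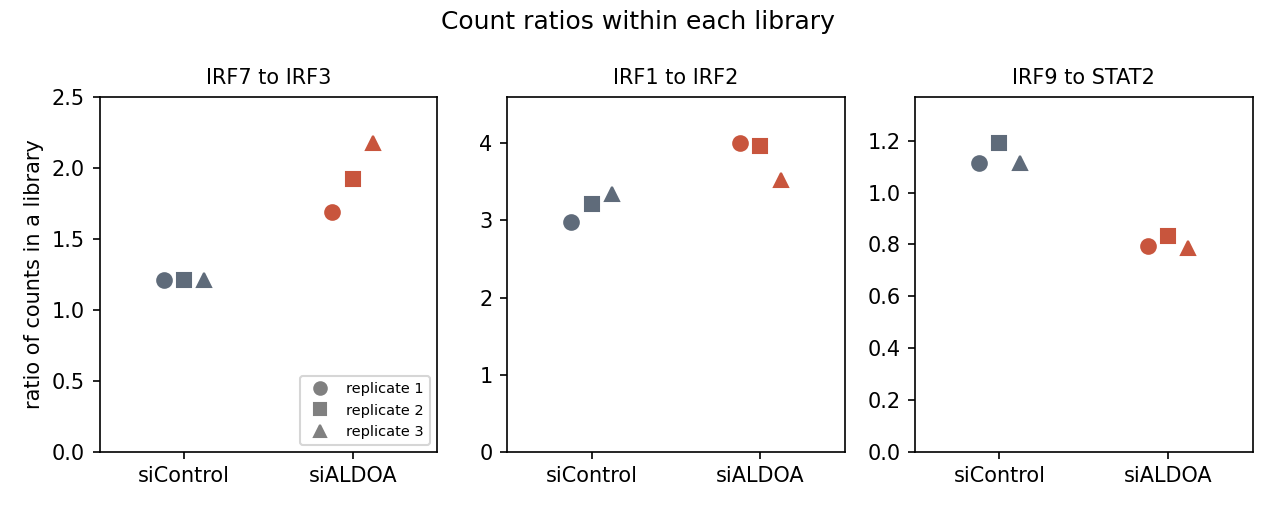
Ratio of the counts of 2 genes within each library, on linear axes from 0, for IRF7 to IRF3, IRF1 to IRF2 and IRF9 to STAT2, with a symbol for each replicate. The first 2 ratios are higher in all siALDOA libraries, and IRF9 to STAT2 is lower, at 0.785 to 0.832 against 1.11 to 1.19.

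IRF1 activates genes of antigen presentation and growth arrest, and its own transcription is known to be induced by interferon gamma. It lies on chromosome 5 from 132481609 to 132490773 (minus strand, ENSG00000125347). Its level was 44.5, 46.8 and 52.4 CPM in siControl and 57.0, 65.0 and 66.9 CPM in siALDOA, and the groups did not overlap. The log2 fold change was 0.39 (standard error 0.077, 95% interval 0.23 to 0.55, edgeR adjusted p = 0.00196), with place 202 by p among genes above 0. The alternative fits gave 0.34 to 0.47 and kept the call. The antisense RNA gene IRF1-AS1 overlaps IRF1 and had 1.70 to 2.34 CPM in siControl and 2.77 to 2.99 CPM in siALDOA (log2 fold change 0.44, edgeR adjusted p = 0.270). Without a stated strand setting, reads of IRF1 and IRF1-AS1 cannot be told apart where they overlap.

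IRF2 binds the same element as IRF1 and is known mainly as a repressor of it. It lies on chromosome 4 from 184387729 to 184474550 (minus strand, ENSG00000168310). Its level was 14.9, 14.5 and 15.7 CPM in siControl and 14.2, 16.4 and 19.0 CPM in siALDOA. The groups overlapped, since siALDOA replicate 1 lay below every siControl library. IRF2 was not called (log2 fold change 0.14, 95% interval -0.093 to 0.37, edgeR adjusted p = 0.499). Leaving out 1 library at a time gave log2 fold changes of 0.025 to 0.23, without a call. The ratio of IRF1 to IRF2 counts was 2.98, 3.22 and 3.35 in siControl and 4.01, 3.96 and 3.52 in siALDOA, without overlap. The mean log2 ratio was 0.27 higher, or 1.20-fold, with the smallest possible p of 0.1 in the two-sided exact permutation test. This ratio too was chosen with earlier results of these data known.

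IRF9 is the DNA-binding subunit of ISGF3, the complex that it forms with STAT proteins after type I or type III interferon. It lies on chromosome 14 from 24161265 to 24166565 (plus strand, ENSG00000213928). Its level was 51.5, 56.4 and 54.1 CPM in siControl and 57.7, 71.9 and 66.2 CPM in siALDOA. The lowest siALDOA library lay just above the highest siControl library. The log2 fold change was 0.27 (standard error 0.076, 95% interval 0.12 to 0.43, edgeR adjusted p = 0.0253). This call did not hold without siALDOA replicate 2 (0.20, adjusted p = 0.161) or replicate 3 (0.26, 0.0758), nor without siControl replicate 1 (0.24, 0.0919), replicate 2 (0.31, 0.0518) or replicate 3 (0.28, 0.0872).

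STAT2, a partner of IRF9 in this complex, rose from 47.3 ± 1.19 to 81.2 ± 7.30 CPM (SD, n = 3, log2 fold change 0.78, edgeR adjusted p = 1.63e-07). The ratio of IRF9 to STAT2 counts, chosen after the values were seen, was 1.12, 1.19 and 1.11 in siControl and 0.792, 0.832 and 0.785 in siALDOA. The difference in the mean log2 ratio was -0.51, given without a test since the ratio was chosen on these values. The counts of both genes in a library come from transcripts of unequal length, so the change of the ratio and not its value compares them.

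The promoters of IRF1 and IRF9 are shown because both genes rose and both hold a match to the element that STAT dimers bind, TTCNNNGAA. The sequences are the 250 bases before the start site, 5′ to 3′ on the strand of the gene, from RefSeq on GRCh38.p14, with the match in capitals.
IRF1 (chr5:132490774-132491023, minus strand): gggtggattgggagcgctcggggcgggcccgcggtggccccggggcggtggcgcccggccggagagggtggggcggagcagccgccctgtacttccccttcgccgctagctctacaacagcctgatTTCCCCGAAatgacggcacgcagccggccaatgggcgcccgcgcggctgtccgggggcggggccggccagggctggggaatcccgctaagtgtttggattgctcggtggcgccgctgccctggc
IRF9 (chr14:24161015-24161264, plus strand): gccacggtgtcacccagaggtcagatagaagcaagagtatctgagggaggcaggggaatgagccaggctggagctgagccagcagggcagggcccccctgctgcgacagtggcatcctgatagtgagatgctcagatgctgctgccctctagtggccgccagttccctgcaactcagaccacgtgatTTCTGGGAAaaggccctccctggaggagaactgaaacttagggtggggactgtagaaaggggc
The matches begin at -124 in IRF1 and at -63 in IRF9, counted from the start site. The element reads alike on both strands, and 9.38% of the 27305 genes in the table, with promoters from 250 bases before to 50 bases after a start site, hold it. The promoter table had entries for IRF1, IRF4, IRF5, IRF8 and IRF9. None of these 5 genes held the core of the interferon response element, GAAANNGAAA, on either strand, which 4.38% of all genes hold. A match is a description and not a bound site, and no match says only that these letters are not in this window.

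IRF5 acts with MYD88 below Toll-like receptors and is known best for inflammatory cytokine genes in myeloid cells. It lies on chromosome 7 from 128937032 to 128950038 (plus strand, ENSG00000128604). Its level was 14.4, 15.7 and 15.5 CPM in siControl and 12.6, 11.4 and 10.3 CPM in siALDOA, so that every siALDOA library lay below every siControl library. The log2 fold change was -0.41 (standard error 0.11, 95% interval -0.64 to -0.18, edgeR adjusted p = 0.0213), at place 568 by p among genes below 0. The direction held in all 13 alternative fits, with log2 fold changes of -0.48 to -0.34, but the call did not hold in 5 of them. Scaling by library totals only gave -0.34 (adjusted p = 0.0887). Leaving out siALDOA replicate 2 or 3 gave an adjusted p of 0.0611 or 0.0977, and leaving out siControl replicate 2 or 3 gave 0.0871 or 0.0854. In bulk RNA, fewer cells that express a gene and less RNA per cell cannot be told apart, for IRF5 as for the other members.

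The IRF5 and IRF8 promoters held a looser motif, a pair of GAAA words 1 to 3 bases apart on either strand, which 10.5% of all genes and 8.68% of all promoters hold and which includes every GAAANNGAAA match. Of 4 IRF5 promoters in the table, 1 held it, and its window is shown as the only such match in a member that was tested, with the motif in capitals.
IRF5 (chr7:128940627-128940655, plus strand): gtctagccacTTTCGTTTCccctggggcc
It begins at -33 from the start site, and its words are written TTTC because they lie on the strand opposite to the gene.

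IRF4 and IRF8 are the lymphoid and myeloid members and act with PU.1, Ikaros and BATF proteins. IRF4 (chromosome 6, 391752 to 411443, ENSG00000137265) had 1, 0 and 0 counts in siControl and 0, 2 and 2 counts in siALDOA. IRF8 (chromosome 16, 85899162 to 85922609, ENSG00000140968) had 0, 3 and 7 counts in siControl and 6, 5 and 2 counts in siALDOA. The highest level was 0.0704 CPM for IRF4 and 0.216 CPM for IRF8, where a count of 0 allows up to 3 counts, or 0.0910 to 0.108 CPM per library, for counting error only. With no filter on low counts the edgeR adjusted p was 0.693 for IRF4 and 0.858 for IRF8, so a difference was not detectable at this depth. Of 8 genes that partner IRF4 and IRF8, SPI1, SPIB, BATF, BATF3 and IKZF1 were also too low to be tested, and none of the other 3 was called. The most abundant of these were TCF3 (log2 fold change -0.21, edgeR adjusted p = 0.0520) and ETV6 (0.13, adjusted p = 0.199). TCF3 lay close to the threshold and passed it in 7 of 13 alternatives, with limma-voom for example at an adjusted p of 0.0494.

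**Figure D4:**
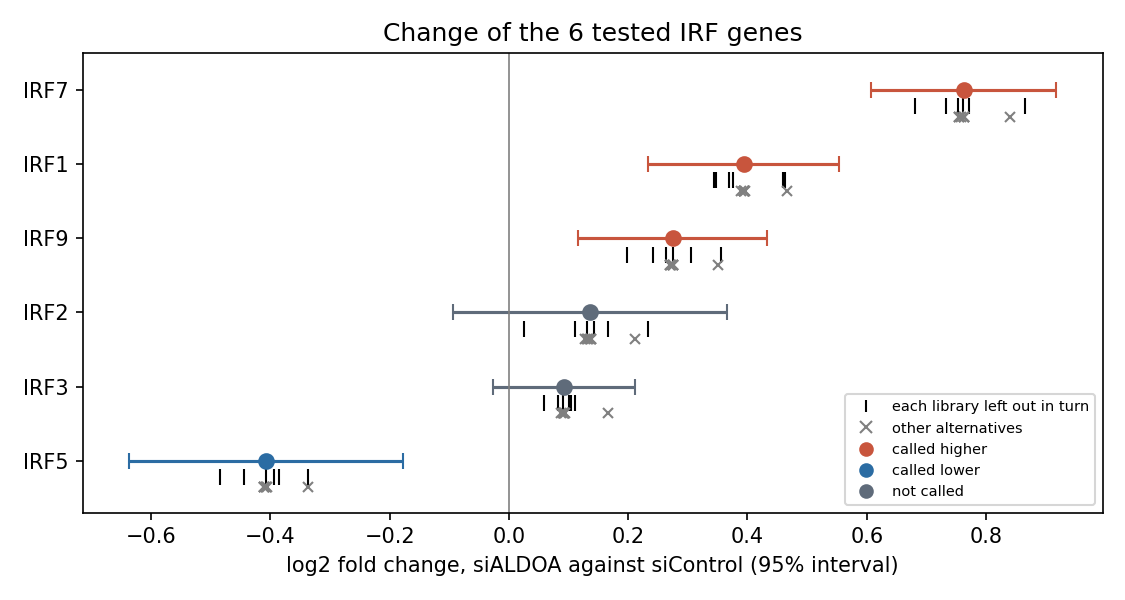
Log2 fold change of the 6 tested IRF genes, siALDOA against siControl, with the 95% interval of the edgeR fit, ticks for the fits that each left out 1 library and crosses for the other alternatives. All alternative values keep the side of 0 of the reported value, from 0.68 to 0.86 for IRF7 and from -0.48 to -0.34 for IRF5.

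Of 16 kinases and adaptors that activate IRFs, all tested, 12 were not called. In this list 2 genes were called higher and 2 lower, beside 4.36% and 5.29% of all tested genes, and the median log2 fold change was -0.015. STING1, the adaptor for cytosolic DNA, rose from 20.1 ± 0.995 to 29.3 ± 4.57 CPM (SD, n = 3, log2 fold change 0.55, edgeR adjusted p = 0.00147). MYD88, the adaptor that also recruits IRF5 and IRF7, rose from 66.5 ± 4.34 to 92.2 ± 11.7 CPM (log2 fold change 0.47, edgeR adjusted p = 5.37e-04). TICAM1, the adaptor of TLR3, fell by 0.40 on the log2 scale (edgeR adjusted p = 0.0139), and MAVS, the adaptor of the RNA helicase sensors, fell by 0.22 (adjusted p = 0.0185). Neither fall passed with library totals only (adjusted p = 0.0826 and 0.315) or without siControl replicate 3 (0.0853 and 0.0782), and that of MAVS did not pass without siControl replicate 1 (0.0783). The kinase genes TBK1 and IKBKE had log2 fold changes of -0.050 and 0.31 and were not called (adjusted p = 0.760 and 0.149).

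Of 11 genes for ISGF3 partners, interferon receptor chains and their kinases, 3 were higher and none lower, beside 4.36% and 5.29% of all tested genes, and the median log2 fold change was 0.068. Among them were STAT2 and IFNGR2, a chain of the interferon gamma receptor (log2 fold change 0.27, edgeR adjusted p = 0.0371). The call of IFNGR2 was lost in 6 of 13 alternatives, up to an adjusted p of 0.184 without siALDOA replicate 3. Of 11 cofactors and turnover genes, 1 was higher, 1 was lower and 9 were not called, with a median of 0.0075. TRIM21, a ubiquitin ligase that acts on several IRFs, rose, with 25.3 to 26.6 CPM in siControl and 49.4 to 59.1 CPM in siALDOA (log2 fold change 1.09, edgeR adjusted p = 5.11e-09). CREBBP, a histone acetyltransferase that IRF3 and IRF7 recruit, fell by 0.24 (edgeR adjusted p = 0.0440). This call too was lost in 6 of 13 alternatives, with an adjusted p of 0.292 with library totals only.

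Genes that IRF1 is known to activate were mostly higher or not called. Of 21 listed, 19 were tested, 9 were called higher and 1 lower, where 4.36% and 5.29% of all tested genes were, and the median log2 fold change was 0.57. The 4 with the smallest p were TAP1, which pumps peptides for antigen presentation (1.31), PSMB9, an immunoproteasome subunit (1.44), NLRC5, the activator of HLA class I genes (1.33), and TNFSF10, the death ligand TRAIL (1.13). TAP1, for example, was at 47.1 ± 3.04 CPM in siControl and 116 ± 13.7 CPM in siALDOA (SD, n = 3). WARS1, the tryptophanyl-tRNA synthetase, was lower (log2 fold change -0.39, edgeR adjusted p = 0.00445) and is named as the only fall, outside the rule for named genes.

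Genes below IRF3 and IRF7 and below ISGF3 were higher wherever they were tested. Of 11 IRF3 and IRF7 targets, 8 were tested and 8 were called higher, where 4.36% of all tested genes were, and the median log2 fold change was 1.67. RSAD2, the antiviral enzyme viperin, was at 19.9 ± 2.26 CPM in siControl and 99.3 ± 16.0 CPM in siALDOA (SD, n = 3, log2 fold change 2.32), and the RNA-binding IFIT1, IFIT3 and IFIT2 had log2 fold changes of 1.76, 1.57 and 1.57. Of the interferon genes, IFNL1 was tested and called higher at low counts (log2 fold change 2.03, edgeR adjusted p = 0.0266). It had 5, 4 and 3 counts in siControl and 16, 17 and 13 in siALDOA. IFNL1 passed the filter on low counts only through its siALDOA libraries, so its call is not independent of its direction. The 8 called genes and their median include it. IFNB1, IFNL2 and IFNL3 were too low to be tested. IFNB1 had 0 counts in every siControl library and 2, 5 and 6 counts in siALDOA. IFNL2 had 0 in every siControl library and 3, 11 and 17 in siALDOA, and IFNL3 had 0, 0 and 2 in siControl and 4, 9 and 10 in siALDOA. IFNL2 shares nearly all its sequence with IFNL3, so reads of this pair could be split between them. All 17 ISGF3 targets were tested and called higher, beside the same 4.36% of all tested genes, with a median of 1.21, among them IFI44L (1.77), DDX58 and IFIH1, the RNA sensors RIG-I and MDA5 (1.21 and 1.25), and OAS2 (1.58).

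**Figure D5:**
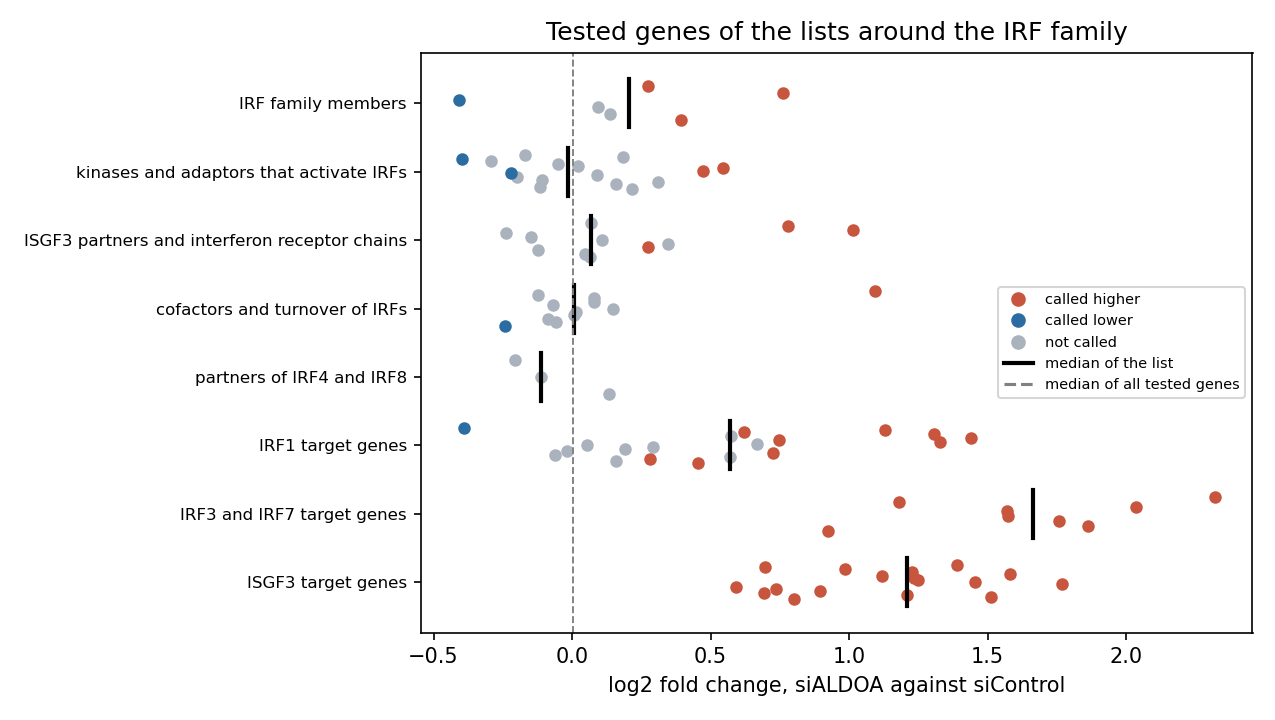
Log2 fold change, siALDOA against siControl, of each tested gene in the IRF family and in 7 lists around it, with a black line at the median of a list and a dashed line at the median of all tested genes (0.0016). The medians are 0.21 for the IRF genes, 0.57 for IRF1 targets, 1.67 for IRF3 and IRF7 targets and 1.21 for ISGF3 targets.

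These lists were written with earlier results of these data known, so their counts describe the genes and are not independent evidence of a direction. Over all 7 lists, 40 of 85 tested genes were higher and 4 lower (median log2 fold change 0.31), beside 4.36% higher and 5.29% lower of all tested genes. The siALDOA library of replicate 1 was the lowest of the 3 siALDOA libraries for IRF7, IRF1 and IRF9, for 35 of the 40 higher list genes and for 285 of all 668 higher genes. Ribosomal RNA genes took 13.1% of the counts of this library, 7.71% and 8.11% of the other siALDOA libraries and 17.4%, 15.3% and 8.15% of the siControl libraries. The part of this share in the levels was not tested beyond leaving those genes out, which gave the same 3 higher and 1 lower IRF genes.

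Short promoter windows of target genes show the element that the family binds, with GAAA words and the bases between them in capitals, written 5′ to 3′ on the strand of the gene (RefSeq, GRCh38.p14). ISG15, IFIT1 and CXCL10 stand for IRF3 and IRF7 targets, TAP1 and B2M for IRF1 targets, and MYD88 for the adaptors.
ISG15 (chr1:1013374-1013409, plus strand): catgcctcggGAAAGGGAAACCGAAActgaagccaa
IFIT1 (chr10:89392497-89392539, plus strand): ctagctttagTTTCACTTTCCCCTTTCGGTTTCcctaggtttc
CXCL10 (chr4:76023699-76023728, minus strand): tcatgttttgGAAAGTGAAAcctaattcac
TAP1 (chr6:32853813-32853848, minus strand): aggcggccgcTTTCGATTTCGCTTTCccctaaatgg
B2M (chr15:44711363-44711398, plus strand): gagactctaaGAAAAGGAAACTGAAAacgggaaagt
MYD88 (chr3:38138590-38138619, plus strand): gcgcttctcgGAAAGCGAAAgccggcgggg
Words written TTTC are the same motif on the other strand. Counted by gene, GAAANNGAAA was present in 8 of 9 IRF3 and IRF7 targets with a promoter in the table, in 11 of 13 IRF1 targets and in 10 of 15 ISGF3 targets, where 4.38% of all 27305 genes hold it. It was present in 1 of 14 kinases and adaptors, MYD88, in 2 of 9 cofactors, RBCK1 and TRIM21, and in none of 9 receptor and ISGF3 partner genes. The shares of target genes are a property of genes listed as IRF targets and say nothing of binding in these cells.

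For each called IRF gene, the 3 genes with the most similar profile over the 6 libraries were found among 13718 tested genes at 1 CPM or more, by the root mean square difference of centred log2 CPM. IRF7 was closest to USP18 (0.0415), LY6E (0.0446) and SHFL (0.0456), all known interferon-induced genes, with log2 fold changes of 0.70, 0.79 and 0.77. IRF1 was closest to SLC5A9 (0.0401), KRT19 (0.0418) and TMEM187 (0.0425). IRF9 was closest to ZNF446 (0.0304), NUB1 (0.0336) and ZNF14 (0.0354). IRF5 was closest to ERCC3 (0.0367), FAM47E (0.0411) and LRRC8D (0.0412). SLC5A9, ZNF446, ZNF14 and FAM47E were not called themselves (edgeR adjusted p = 0.0938, 0.0905, 0.509 and 0.420). USP18 is also in the list of ISGF3 targets. Likeness over 6 libraries in 2 groups is a description and carries no test.

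Genes that lie next to the members were read for shared reads. In the IRF2 gene lies SNORD79, which had a log2 fold change of 0.074 (edgeR adjusted p = 0.735), and LINC02362 starts near IRF2 and had at most 3 counts in a library. MIR6774, inside IRF8, and REC8, which starts near IRF9, were listed at 0 in every library. Several annotated genes next to the members were not counted. Among them are the protein-coding ENSG00000259529, which overlaps IRF9 on the same strand, and ENSG00000283782, which overlaps IRF1 on the opposite strand. Reads shared with the uncounted genes were not measured.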

How the data were processed

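RNA-Seq libraries of HT29 cells, 3 with siALDOA and 3 with siControl, were compared. The authors deposited whole-number counts per gene symbol, without normalization, from paired-end reads that TopHat2 had placed on hg38, and per the labels' processing notes edgeR and limma were used. Annotation, strand setting and multi-mapped reads are not given in the sources used here. The libraries held 27277538 to 33237914 counts, and the precision of low genes is limited by their counts. Replicate libraries differed by more than sampling noise (chi-square per degree of freedom 5.09 to 90.7).

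The counts were tested in R 4.3.3 with edgeR 4.0.16, using filterByExpr, TMM scaling, the quasi-likelihood F-test over 15307 genes, no covariate and Benjamini-Hochberg adjustment, with calls at an adjusted p under 0.05. CPM used TMM-scaled totals, and log2 CPM used a prior count of 2. Standard errors and 95% intervals came from this fit. Ratios of raw counts were compared with two-sided exact permutation tests. Levels per kilobase used canonical transcripts of GENCODE release 44, and promoters came from RefSeq (GRCh38.p14). The method was tested on simulated counts. A count of 0 was taken to allow up to 3 counts.

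The members, lists, tests and alternatives were chosen with earlier results of these data known. Named genes were the members, ALDOA, STAT2 and the 4 called genes with the smallest p of each list (or the 2 most abundant where none was called). Counted genes overlapping a member or starting within 5000 bases were added, with uncounted protein-coding genes that overlap a member. The 3 most similar profiles of each called member were also named. TBK1 and IKBKE as kinases of IRF3, marker genes, and ISG15, CXCL10, B2M, RBCK1, WARS1 and the low genes of the lists are named outside this rule. Alternatives were limma-voom (limma 3.58.1), DESeq2 1.42.0, library totals only, no filter, at least 10 counts in every library, ribosomal RNA genes left out, a replicate block, an unadjusted p under 0.01 and each library left out in turn. The ratios of IRF9 to STAT2 and of IRF5 to IRF7 were added after the data were seen and carry no test. Protein sequences were not used here, and values of 1 gene that the lists count are not reported here.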

Additional observations from a re-analysis of the deposited data

How the results depend on the processing

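The calls of IRF7 and IRF1 held in all 13 alternatives, and those of IRF9 and IRF5 did not hold in 5 each, as given with their values above. The count of higher IRF genes was 2 to 3, and that of lower IRF genes was 0 with library totals only and 0 to 1 over the fits without 1 library. The lists, for which limma-voom, DESeq2, library totals only, the replicate block and each library left out were run, held 36 to 40 higher genes, and 1 lower gene with library totals only and 1 to 6 when each library was left out. Under library totals only the median log2 fold change of all genes was 0.075, 896 genes were higher and 279 lower, and BCL2L12 turned from -0.051 to 0.021. Relative to that shift IRF5 stayed lower. Without siControl replicate 2, 359 genes were higher and 490 lower over all genes, and without siControl replicate 3 these were 363 and 471, against 668 and 810 with all libraries. The ratio of IRF1 to IRF2 differed by 0.22 to 0.33 (log2) and that of IRF9 to STAT2 by -0.53 to -0.47 when each library was left out, with exact permutation p up to 0.2 for the former.

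Same-numbered siControl and siALDOA libraries had correlations of deviations of 0.035, 0.027 and 0.026, and each siControl library correlated best with its own number. These correlations over all genes were small and do not settle whether the replicates were paired. A replicate block gave 987 higher and 1175 lower genes, against 668 and 810 without it. It gave the same 3 higher and 1 lower IRF genes and 40 higher list genes. TCF3 (edgeR adjusted p = 0.0143) and ZNF446 (0.0462) were then called. Depth limits IRF4 and IRF8, for which no difference could be detected. The cause of these changes with the setting was not tested.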

Other observations

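1 ratio was formed after the values of its genes were seen and belongs to no planned comparison. The ratio of IRF5, the member that fell, to IRF7, the member that rose most, was 0.10 to 0.11 in siControl and 0.0617, 0.0458 and 0.0386 in siALDOA replicates 1, 2 and 3, a difference of -1.16 in the mean log2 ratio. The groups of both genes lay apart in opposite directions before the ratio was formed, so its groups had to lie apart and no test is given. Leaving out 1 library at a time gave differences of -1.35 to -1.01.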
